A study of Mus musculus with 4 samples.

Results

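CD8 deposited cluster 6 is the group of cells that the authors' table of cells places in the CD8 object under cluster number 6. It holds 207 of the 2377 CD8 cells and of the 3587 cells in all. Of these, 86 came from the alloBMT library and 121 from the PT-Cy library. The deposited label is only a number, so the cells are called cluster 6 throughout. The study transplanted C57Bl/6 mice with marrow (5000000 cells) from C3H.SW donors together with CD4 and CD8 T cells of the same donors (500000 of each), which is the alloBMT group. In the PT-Cy group, recipients of the same graft also received cyclophosphamide at 50 mg/kg on day 3 and again on day 4. On day 14, bone marrow of 4 mice per group was pooled, and its CD4 and CD8 T cells, isolated by FACS, were read with the 10x Multiome assay, which measures RNA and open chromatin (ATAC) in the same nucleus. The labels tie each group to 1 pooled library, so no comparison below has replicates and none carries a p-value. RNA counts of genes in the CD8 cells are not analysed here, and all levels below are ATAC counts, that is, accessibility and not expression.

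T cells that meet a persistent antigen, as donor T cells do in an allogeneic host, take on different programmes. Some keep the transcription factors of resting and memory cells, such as TCF1 (the product of Tcf7), LEF1 and BACH2, which go with self-renewal and the capacity to give rise to other T cells. Others become cytotoxic effectors or enter exhaustion, a state marked by the factor TOX and by inhibitory receptors such as PD-1 (Pdcd1) and TIM-3 (Havcr2). Loci used in a programme are usually more open to the transposase that ATAC relies on, which is why open chromatin can be read gene by gene.

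Cluster 6 made up 4.61% of alloBMT CD8 cells (86 of 1865; exact 95% interval 3.70% to 5.66%) and 23.6% of PT-Cy CD8 cells (121 of 512; 20.02% to 27.6%). These intervals, like all others below, cover counting error only and leave out the spread between mice, pools and sorts. The remaining CD8 cells differed in make-up between the libraries: in PT-Cy, 170 were in cluster 2 and 189 in cluster 5, whereas in alloBMT 139 and 30 were, and most of the rest lay in clusters 0, 1, 3, 4 and 7. For that reason values against clusters 2 and 5 alone are given beside the main ones where they matter. The method behind the clusters was not given in the sources used here. Since the ATAC counts may have entered it, every contrast of cluster 6 with other cells is a description.

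**Figure D1:**
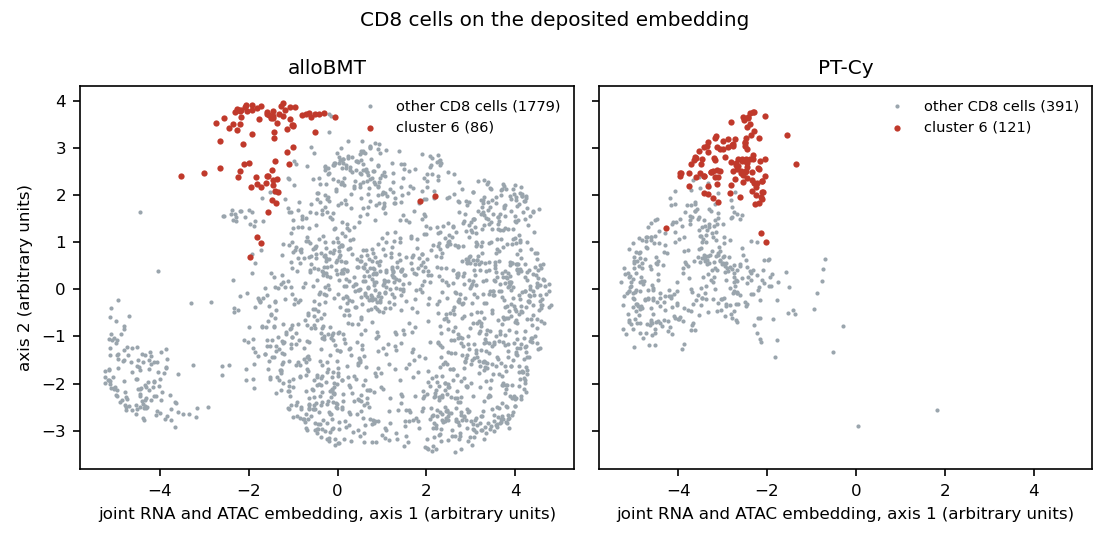
Each point is a CD8 cell at its 2 deposited embedding coordinates (arbitrary units), alloBMT on the left and PT-Cy on the right, with cluster 6 coloured and all other CD8 cells in grey. Cluster 6 holds 86 of 1865 cells on the left and 121 of 512 on the right.

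Depth differed little between cluster 6 and the other CD8 cells of a library. The median was 6932.5 ATAC counts per cell in cluster 6 of alloBMT against 7872 in the other cells, and 4566 against 4670 in PT-Cy. In total cluster 6 held 756708 ATAC counts in alloBMT and 738065 in PT-Cy, against 15849222 and 2379807 in the other cells. The median percent of fragments in peaks was 65.5% against 65.4% in alloBMT and 59.9% against 58.0% in PT-Cy, and the median TSS enrichment lay between 5.23 and 5.38 in the 4 sets. Cell barcodes shared by both libraries numbered 2, of which 1 belonged to a cluster 6 cell, in PT-Cy. Leaving these cells out kept every count, list and gene that was recomputed on its side of the call.

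T cell loci were open in cluster 6 to about the same degree as in the other CD8 cells. Among 12 measured genes of T cell identity, 0 were at least 1.5-fold higher or lower in either library. Of all measured genes, 4.4% in alloBMT and 5.92% in PT-Cy were, so a count of 0 among 12 is near that share. For the T cell identity genes, the median log2 ratio of cluster 6 to other cells was 0.12 in alloBMT and 0.02 in PT-Cy. Cd8a, the CD8 alpha chain, had 38.3 CPM (counts scaled to a total of 1000000 in peaks) in cluster 6 of alloBMT against 33.1 in the other cells, and 32.5 against 26.5 in PT-Cy. For Cd8b1, the beta chain, the levels were 87.2 against 56.6 CPM in alloBMT (log2 ratio 0.62, interval 0.24 to 0.99) and 69.1 against 65.1 CPM in PT-Cy. Cd4 also had counts, at 52.9 against 44.3 CPM and 54.2 against 43.3 CPM, and the 7 CD4 lineage genes summed were more open in cluster 6 than in the other cells (log2 ratio 0.18, 0.04 to 0.32, and 0.25, 0.10 to 0.40). The 7 CD8 lineage genes summed were less open in cluster 6, at -0.21 (-0.34 to -0.08) in alloBMT and -0.18 (-0.33 to -0.04) in PT-Cy, with medians of -0.26 and -0.22. The part of these differences in the results below was not tested. Foxp3, which defines regulatory T cells, had 3 counts in cluster 6 of alloBMT and 5 in that of PT-Cy.

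Loci of other marrow cells carried counts in cluster 6, some of them more than Cd8a. Cd79a of B cells had 52 counts in cluster 6 of alloBMT and 70 in PT-Cy, Pax5 of B cells 65 and 46, and Zbtb46 and Xcr1 of dendritic cells 160 and 166, and 65 and 48. Relative to the other CD8 cells, Itga2 of the NK cell list was more open in both libraries (0.48, 0.16 to 0.77, and 0.45, 0.11 to 0.79), and Cd79a was at -0.23 (-0.66 to 0.17) and 0.43, where the lower bound was just above 0. Itga2 was the only 1 of 5 measured NK cell genes with a log2 ratio above 0 in alloBMT, where 2 had intervals below 0 (median -0.37). In PT-Cy 3 of 4 were above 0 (median 0.09). Of the loci with a peak, Ncr1 of NK cells, Ms4a1 of B cells, Tnfrsf17 of plasma cells and Lyz2 of myeloid cells were at 0 in cluster 6 of both libraries, where a count of 0 allows up to 3 counts, and S100a9 of myeloid cells had 1 and 1. The NK cell list has 13 genes, of which 4 have no peak and so say nothing, and the B cell list has 12, all with a peak. Summed over each list, the log2 ratio of cluster 6 to other cells was -0.13 in alloBMT and 0.04 in PT-Cy for NK cell genes, -0.07 and 0.16 for B cell genes, and -0.00 and -0.11 for myeloid genes, and their part in the results below was not tested. The handling of doublets by the authors was not given in the sources used here, and no caller was run. The comparisons were recomputed without the 5% of CD8 cells with the most ATAC counts, with the same outcome. Doublets or other marrow cells of ordinary depth stay in under that rule, so it cannot show whether they took part.

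The deposited table of cells carries 4 scores per cell, named Stem_Like1, Stem_Like_Acc1, Tex1 and Tex_Acc1, whose gene or peak sets were not given in the sources used here. Cluster 6 had the highest median of both stem-like scores and the lowest of both Tex scores among all CD8 clusters with at least 20 cells, 8 clusters in alloBMT and 4 in PT-Cy. Stem_Like1 averaged 0.104 ± 0.134 (SD over 86 cells) in cluster 6 of alloBMT against -0.00953 ± 0.0817 in the other cells, and 0.117 ± 0.124 (SD over 121 cells) against 0.0473 ± 0.0865 in PT-Cy. Of the cluster 6 cells, 68 of 86 (79.1%, 69.0% to 87.1%) and 85 of 121 (70.2%, 61.3% to 78.2%) lay above the median of the other cells. Stem_Like_Acc1 averaged 0.118 ± 0.124 against 0.0241 ± 0.105 in alloBMT and 0.111 ± 0.114 against 0.0723 ± 0.112 in PT-Cy, where 74 of 121 cells (61.2%, 51.9% to 69.9%) lay above the other cells' median. Cells of both sets overlapped widely in both stem-like scores.

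The Tex scores went the other way. Tex1 averaged -0.00855 ± 0.0265 in cluster 6 of alloBMT against 0.0280 ± 0.0269 in the other cells, with 8 of 86 cells (9.30%, 4.10% to 17.5%) above the other cells' median. In PT-Cy it averaged -0.0364 ± 0.0250 against -0.0117 ± 0.0238, with 17 of 121 cells (14.0%, 8.40% to 21.5%) above that median. For Tex_Acc1 the means were 0.0183 ± 0.0373 against 0.0577 ± 0.0381 and 0.0193 ± 0.0402 against 0.0399 ± 0.0410. The median Tex_Acc1 of cluster 5 in alloBMT was 0.0245, against 0.0244 in cluster 6, so the order of these clusters there rests on less than the spread over cells. In PT-Cy cluster 1 came next, at 0.0327 against 0.0195 in cluster 6. The medians of Stem_Like1 in cluster 5, the next highest after cluster 6, were 0.0595 in alloBMT and 0.0533 in PT-Cy, against 0.0969 and 0.105.

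**Figure D2:**
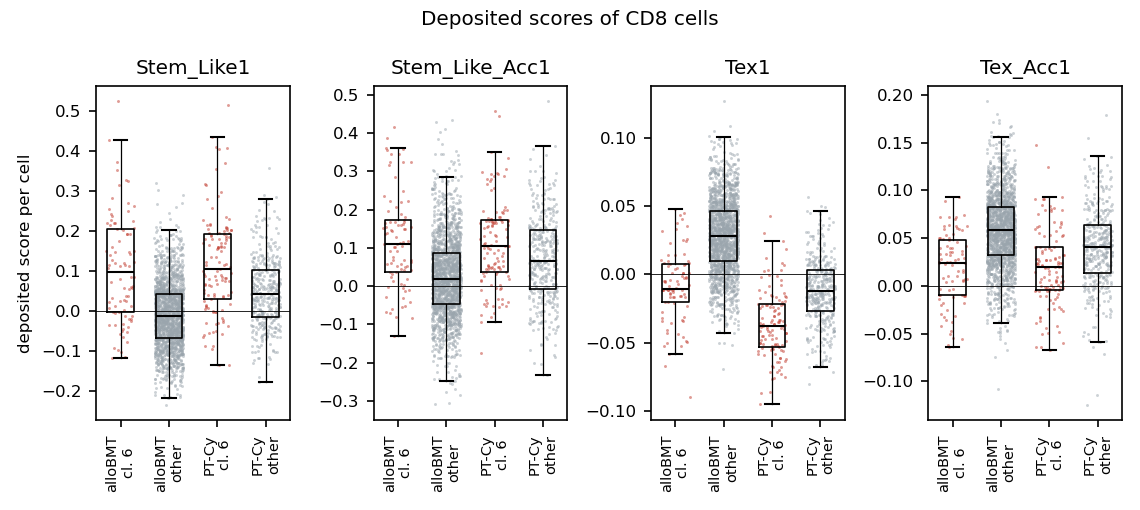
Each panel plots 1 of the 4 deposited scores (arbitrary units, y axis) for cluster 6 (cl. 6, red) and other CD8 cells (grey) of both libraries, with points for cells, boxes for the quartiles, a line at the median and whiskers to the farthest cells within 1.5 box lengths. Cluster 6 sits higher in Stem_Like1 and Stem_Like_Acc1 and lower in Tex1 and Tex_Acc1 than the other cells of its library, and its cells overlap them in every panel.

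Cluster 6 was not uniform in these scores. In alloBMT 44 of 86 cells (51.2%, 40.1% to 62.1%) were above the other cells' median for both stem-like scores and below it for both Tex scores, against 139 of 1779 other cells (7.81%). In PT-Cy 40 of 121 cluster 6 cells were (33.1%, 24.8% to 42.2%), against 33 of 391 other cells (8.44%). Within cluster 6 the 2 stem-like scores went together across cells with r = 0.449 in alloBMT (86 cells) and 0.227 in PT-Cy (121 cells), against 0.137 and 0.0918 in the other cells. For the 2 Tex scores r was 0.355 and 0.231, against 0.284 and 0.160. These correlations describe cells of 1 library that share its depth. Within cluster 6, Stem_Like_Acc1 and Tex_Acc1 had correlations with log10 ATAC counts per cell from -0.094 to 0.256. Those of Stem_Like1 and Tex1 with log10 RNA counts per cell ran from -0.215 to 0.291.

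Accessibility was then summed per gene, over all peaks that overlap the gene or lie within 2 kb of it, and scaled to the total ATAC counts of each set of cells. A gene was measured where at least 20 counts were expected in the smaller set, and called higher or lower at 1.5-fold. In alloBMT, 178 of 11204 measured genes (1.59%) were higher in cluster 6 than in the other CD8 cells and 315 (2.81%) were lower. In PT-Cy, 276 of 11121 genes (2.48%) were higher and 382 (3.43%) lower. The counting interval of the ratio lay above 1 for 615 genes (5.49%) and below 1 for 601 (5.36%) in alloBMT, and for 645 (5.8%) and 504 (4.53%) in PT-Cy. Error of independent counts would leave up to 2.5% on each side. Reads sharing a molecule may be counted more than once, which makes the intervals too narrow. These shares therefore do not show an excess over counting error. The split depends on the scaling: with TMM factors over all peaks, which moved every log2 ratio by -0.26 in alloBMT and -0.19 in PT-Cy, 40 genes were higher and 1462 lower in alloBMT, and 82 higher and 1035 lower in PT-Cy. Genes just past 1.5-fold lose their call under that scaling. Ratios below are therefore relative to the total in peaks, and the median over all measured genes was -0.01 in alloBMT and 0.02 in PT-Cy.

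Several transcription factors of resting and memory T cells were among the loci more open in cluster 6. Tcf7, which encodes TCF1, had 223 CPM in cluster 6 of alloBMT against 125 in the other CD8 cells of that library. In PT-Cy it had 211 CPM against 124. Cluster 6 was thus high in both libraries and the other cells were at nearly the same lower level in both. The log2 ratio was 0.84 (0.61 to 1.07; 169 counts in cluster 6) in alloBMT and 0.76 (0.48 to 1.05; 156 counts) in PT-Cy, and 0.96 and 0.77 against clusters 2 and 5 alone. By cluster, Tcf7 was highest in cluster 6 of both libraries. The next were cluster 7 in alloBMT at 160 CPM (141 to 181, against 191 to 260 in cluster 6) and cluster 5 in PT-Cy at 140 CPM (115 to 168, against 179 to 247), whose intervals did not overlap that of cluster 6. Cluster 1 of PT-Cy, with 23 cells, was at 135 CPM with an interval too wide to order it.

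Satb1, an organiser of chromatin in developing and resting T cells, had 151 CPM against 89.8 in alloBMT and 169 against 81.9 in PT-Cy, giving log2 ratios of 0.75 (0.46 to 1.02) and 1.05 (0.71 to 1.38). Foxp1, a factor that keeps T cells quiescent, had 469 against 265 CPM and 534 against 349 CPM (0.83, 0.67 to 0.98, and 0.61, 0.44 to 0.79). Bach2, a repressor of effector genes, had 648 against 433 CPM and 656 against 443 CPM (0.58, 0.45 to 0.71, and 0.56, 0.41 to 0.72), just under 1.5-fold in both. With TMM factors over all peaks, Tcf7, Satb1, Foxp1 and Bach2 of alloBMT were at 0.58, 0.49, 0.57 and 0.32, and Tcf7, Foxp1 and Bach2 of PT-Cy at 0.58, 0.425 and 0.38, all below 1.5-fold. Satb1 of PT-Cy, at 0.86, was the only call of these 4 genes to remain. Satb1, Foxp1 and Bach2 had their highest level in cluster 6 among the clusters with at least 20 cells of either library, though for Satb1 the interval of cluster 4 in alloBMT (98 to 125 CPM) reached that of cluster 6 (124 to 181). Id3, an inhibitor of E proteins that marks memory precursors, was below the minimum count for a call and had 44.9 against 17.8 CPM and 46.1 against 23.5 CPM (1.34, 0.78 to 1.85, and 0.97, 0.31 to 1.61).

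Others of this group were less even across the libraries. Klf3, a repressor of the KLF family, had a log2 ratio of 1.05 (0.76 to 1.32) in alloBMT and 0.43 (0.11 to 0.73) in PT-Cy. Lef1, the partner of TCF1, was at 299 against 228 CPM in alloBMT (0.39, 0.19 to 0.58) and at 306 against 270 CPM in PT-Cy (0.18, -0.04 to 0.40), below the 1.5-fold call in both. Of the effector factors, Tbx21 (T-bet) was at -0.01 and 0.07 and Zeb2 at 0.07 and -0.25. Eomes was lower in alloBMT (-0.47, -0.85 to -0.12) and at -0.31 in PT-Cy, where its interval included 0. Of the transcription factors listed for stem-like and effector states, 4 of 23 measured were higher and 0 lower in alloBMT, where 1.59% and 2.81% of all genes were, and 4 of 24 higher and 1 lower in PT-Cy, where 2.48% and 3.43% were.

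**Figure D3:**
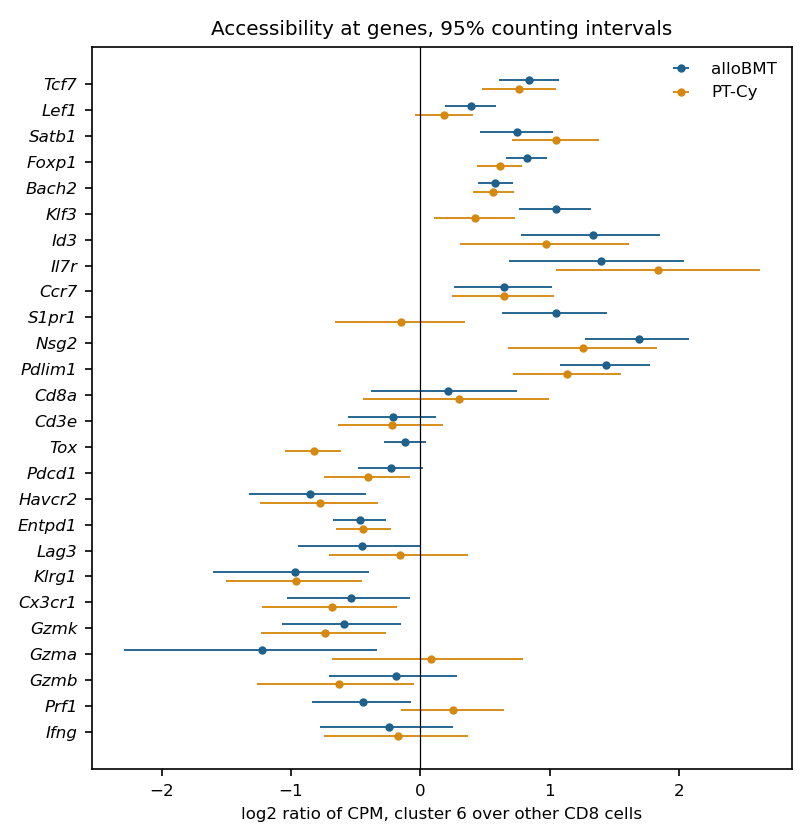
Log2 ratios of cluster 6 to the other CD8 cells (x axis) for the named genes (y axis), alloBMT and PT-Cy side by side, with 95% counting intervals as bars. Tcf7 sits at 0.84 and 0.76 and Satb1 at 0.75 and 1.05, to the right of 0, whereas Havcr2 sits at -0.85 and -0.77.

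Within a locus, single peaks differed to unequal degrees. Of the 10 peaks assigned to Tcf7, the one at chr11:52273789-52275944, inside the gene and 7.73 kb from its start, had 57 counts in cluster 6 and 388 in the other cells of alloBMT, and 55 and 66 in PT-Cy. Its log2 ratios were 1.62 (1.19 to 2.03) and 1.43 (0.88 to 1.96), and it was the leading peak of alloBMT and among the 5 leading peaks of PT-Cy. In alloBMT its expected count was 20.3, just above the minimum of 20. With each cell counted once per peak, no peak of alloBMT was called more open, so this call was lost. At an expected count of at least 40, it was lost in both libraries. The peak over the start of the gene, chr11:52282470-52283523, had 33 against 172 counts in alloBMT and 22 against 29 in PT-Cy (2.01, 1.42 to 2.55, and 1.29, 0.42 to 2.14), below the minimum for a call. A peak 16.77 kb from the start differed less, at 0.27 and 0.45. Peaks within Foxp1 (chr6:99374439-99375816) and Bach2 (chr4:32343237-32344568) had log2 ratios of 2.92 and 2.55, and of 1.76 and 2.13. Both were below the minimum for a call in each library and were picked because cluster 6 itself reached 20 counts, a choice that fixes a high ratio, so their ratios support nothing.

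The sequences before the start sites are shown for 4 genes whose start-site peaks differed in both directions: Tcf7, Nsg2 and Id3, more open in cluster 6, and Havcr2, less open. These peaks were below the minimum for a call and were chosen after their values were seen. The sequences are the 250 bases upstream of the start, 5′ to 3′ on the gene's strand, from RefSeq (GRCm38.p6): chr11:52282596-52282845 on the minus strand for Tcf7, chr11:32000169-32000418, chr4:136143572-136143821 and chr11:46454681-46454930 on the plus strand for Nsg2, Id3 and Havcr2. Capitals mark the letters of the motifs searched on both strands. Tcf7 and Nsg2 each have a further start site under a peak, whose windows (chr11:52283015-52283264 and chr11:32000450-32000699) held none of these motifs and are not shown.
Tcf7: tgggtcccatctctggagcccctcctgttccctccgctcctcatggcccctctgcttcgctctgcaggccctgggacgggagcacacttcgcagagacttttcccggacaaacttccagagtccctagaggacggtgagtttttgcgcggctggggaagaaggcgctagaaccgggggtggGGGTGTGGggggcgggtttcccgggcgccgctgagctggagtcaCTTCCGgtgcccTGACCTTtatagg
Nsg2: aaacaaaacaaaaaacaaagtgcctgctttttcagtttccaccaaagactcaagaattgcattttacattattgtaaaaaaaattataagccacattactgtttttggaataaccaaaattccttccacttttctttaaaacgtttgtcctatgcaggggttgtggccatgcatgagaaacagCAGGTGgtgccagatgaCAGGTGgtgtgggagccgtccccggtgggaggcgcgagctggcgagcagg
Id3: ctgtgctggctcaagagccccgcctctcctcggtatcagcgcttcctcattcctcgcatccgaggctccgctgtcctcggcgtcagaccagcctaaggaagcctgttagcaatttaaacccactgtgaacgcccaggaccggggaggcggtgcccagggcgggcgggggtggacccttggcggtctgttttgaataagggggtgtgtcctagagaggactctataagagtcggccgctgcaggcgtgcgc
Havcr2: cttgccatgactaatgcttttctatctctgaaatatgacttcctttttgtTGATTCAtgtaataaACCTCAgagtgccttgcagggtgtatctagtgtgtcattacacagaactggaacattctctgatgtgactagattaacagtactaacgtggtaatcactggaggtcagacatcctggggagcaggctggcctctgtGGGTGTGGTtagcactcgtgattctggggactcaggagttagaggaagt
In Tcf7 the capitals are a KLF core (CCACACCC), an ETS core (CGGAAG) and an NR4A motif (AAGGTCA), which start 69, 25 and 13 bases before the start site and are read here from the opposite strand. In Nsg2 they are 2 E-boxes (CAGGTG), 67 and 50 bases before it. In Havcr2 they are an AP-1 motif (TGANTCA) 200 bases before the start, RUNX cores (TGNGGT) 185 and 46 bases before it, and a KLF core 49 bases before it that overlaps the nearer RUNX core. None of the motifs searched, which also include TCF/LEF (TCAAAG), lies in the Id3 window. Of 32851 promoters of the same length, 3.20% hold the KLF core, 13.6% the ETS core, 4.08% the NR4A motif, 17.2% the E-box, 6.75% the AP-1 motif and 40.1% the RUNX core. Over measured promoters of alloBMT, the TCF/LEF core was in 9.69% of the 289 more open in cluster 6, in 9.29% of the 226 less open and in 9.49% of all 8369. A match is only a match of letters.

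**Figure D4:**
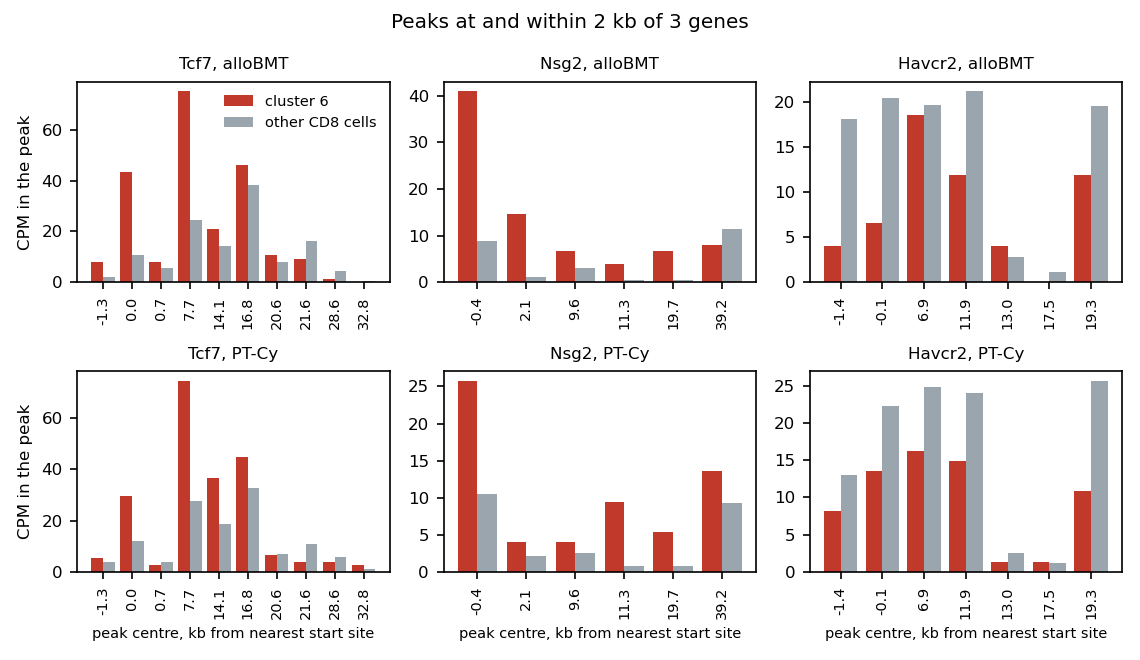
Accessibility (CPM, y axis) of each peak at Tcf7, Nsg2 and Havcr2 in cluster 6 (red) and in the other CD8 cells (grey), alloBMT above and PT-Cy below, with the distance of the peak centre from the nearest start site in kb on the x axis. The Tcf7 peak 7.73 kb from the start stands highest in cluster 6 of both libraries, and most Havcr2 peaks are higher in the other cells.

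Receptors that guide resting and memory T cells and keep them alive were mixed, with more of them higher in alloBMT than in PT-Cy. Ccr7, the receptor for lymph node chemokines, had 83.3 against 53.1 CPM in alloBMT and 110 against 70.2 CPM in PT-Cy (0.65, 0.26 to 1.02, and 0.65, 0.24 to 1.04), and was at 0.39 and 0.46, below the call, with TMM factors over all peaks. S1pr1, which guides exit from tissues, had 75.3 against 36.4 CPM in alloBMT (1.05, 0.63 to 1.44) but 59.6 against 66.0 CPM in PT-Cy (-0.15, -0.66 to 0.34), where cluster 6 was the lowest of 4 clusters. Il7r, the receptor chain for the survival cytokine IL-7, was below the minimum count and had 29.1 against 11.0 CPM (22 counts; 1.40, 0.69 to 2.04) and 42.0 against 11.8 CPM (31 counts; 1.84, 1.05 to 2.63). In alloBMT it was as open in cluster 5, at 30 CPM, as in cluster 6. Il6ra, the IL-6 receptor, was at 0.66 (0.31 to 0.99) and 0.21 (-0.15 to 0.56), Il12rb2, an IL-12 receptor chain, at 0.69 (0.35 to 1.02) and 0.51 (0.08 to 0.93), and Il18rap, an IL-18 receptor chain, at 0.92 (0.47 to 1.35) and 0.31 (-0.32 to 0.92).

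As a list, 6 of 10 measured genes of naive and central memory T cells were higher in cluster 6 of alloBMT and 0 lower, where 1.59% of all genes were called higher, and 3 of 10 were higher in PT-Cy, where 2.48% were. Their median log2 ratio was 0.65 in alloBMT and 0.36 in PT-Cy. Summed, the list held 1968 CPM in cluster 6 against 1303 in alloBMT (0.59, 0.52 to 0.67) and 2009 against 1473 in PT-Cy (0.45, 0.36 to 0.54). Of the stem-like memory genes, 3 of 10 were higher in alloBMT (median 0.34) and 2 of 11 in PT-Cy (median 0.21), and 0 were lower at 1.5-fold. Their lowest log2 ratios were -0.55 and -0.43. The interval lay above 1 for 6 and below it for 1 in alloBMT, where 5.49% and 5.36% of all genes did. In PT-Cy it did for 3 and 0, where 5.8% and 4.53% did. Cytokine receptors had 3 of 18 higher in alloBMT and 0 of 18 in PT-Cy, and trafficking genes 6 of 19 higher and 1 lower in alloBMT but 1 of 20 higher and 1 lower in PT-Cy. The lists overlap in members such as Tcf7, so their counts are not separate observations.

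Among the leading genes of either library were several outside these lists. Nsg2, a membrane protein best known from neurons and from resting T cells, had 80.6 CPM in cluster 6 of alloBMT against 25.05, and 62.3 against 26.1 in PT-Cy. Its log2 ratios were 1.69 (1.27 to 2.08) and 1.26 (0.68 to 1.83), and the peak over its start at chr11:31999455-32000641 had 31 against 139 counts and 19 against 25. That peak was below the minimum for a call in both libraries and was picked by its count in cluster 6, so its ratio supports nothing. Pdlim1, a cytoskeletal adaptor, had 103 against 38.1 CPM and 112 against 51.3 CPM (1.44, 1.08 to 1.78, and 1.13, 0.71 to 1.55). Both were thus more open in cluster 6 of both libraries. Irs2, an adaptor of insulin and cytokine receptors, had 76.6 against 29.0 CPM in alloBMT (1.40, 0.98 to 1.80) and 61.0 against 43.7 CPM in PT-Cy (0.48, from 45 and 104 counts, with an interval that includes 0). Axin2, a target and inhibitor of Wnt signalling, was at 1.11 (lower bound 0.69) and 0.37. St8sia1, a sialyltransferase, was at 0.72 and 0.96.

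In PT-Cy the leaders also included Spef2, Chst15, Tanc1, Sgk3 and Dtx1. Spef2, a gene of the sperm tail, had 112 CPM in cluster 6 against 37.4 (1.59, 1.14 to 2.04), and 0.72 in alloBMT on the log2 scale. Its leading peak, chr15:9580453-9581873, had 32 against 16 counts in PT-Cy (2.69, 1.78 to 3.65) and 12 against 56 in alloBMT (2.17, 1.13 to 3.08). It too was below the minimum and picked by its count in cluster 6 of PT-Cy, which fixes a high ratio there. That peak lies 50.6 kb before the start of Il7r, the neighbouring gene on chromosome 15, with no annotated gene in between, and which gene it serves was not tested. Sgk3, a kinase downstream of PI3K, was at 1.29 (0.81 to 1.77) in PT-Cy and 0.57 in alloBMT, and Dtx1, a regulator of Notch signalling, at 1.20 (0.78 to 1.62) and 0.35. Chst15, a sulfotransferase, was at 1.55 (0.98 to 2.13), and at 1.21 in alloBMT below the minimum count.

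Genes of exhaustion were on balance less open in cluster 6. Havcr2 (TIM-3) had 56.8 CPM against 103 in alloBMT and 66.4 against 113 in PT-Cy. Cluster 6 was the lowest of all clusters in both libraries, the next being cluster 0 at 84 CPM and cluster 5 at 101 CPM, whose intervals (76 to 92 and 80 to 125) overlapped the upper end of those of cluster 6 (41 to 77 and 49 to 88). The log2 ratios were -0.85 (-1.33 to -0.42; 43 counts in cluster 6) and -0.77 (-1.24 to -0.33; 49 counts). The peak over its start, chr11:46454424-46455148, held 5 counts in cluster 6 of alloBMT against 323 in the other cells (-1.62, -3.26 to -0.39), below the minimum for a call.

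Tox, the factor most tied to exhaustion, differed between the libraries. In alloBMT it had 439 CPM in cluster 6 against 476 (-0.12, -0.28 to 0.04; 332 counts), and the 8 clusters lay close together, between 439 and 505 CPM. In PT-Cy it had 282 CPM against 500 (-0.83, -1.05 to -0.61; 208 counts), and the other 3 clusters lay between 462 and 581 CPM. Against clusters 2 and 5 alone the ratios were -0.08 and -0.81. Its relative Tox2 went the same way, at -0.15 (-0.44 to 0.13) and -0.76 (-1.14 to -0.40). Pdcd1 (PD-1) was at -0.23 (-0.49 to 0.02) and -0.41 (-0.74 to -0.08), Ctla4, another inhibitory receptor, at -0.32 (-0.66 to 0.00) and -0.46 (-0.84 to -0.09), and Ikzf2 (HELIOS) at -0.21 (-0.50 to 0.06) and -0.64 (-0.95 to -0.34). A peak 21.6 kb from Pdcd1, chr1:94074193-94075497, had 11 counts in cluster 6 of alloBMT against 800 in the other cells (-1.80, -2.80 to -0.95) and 13 against 72 in PT-Cy (-0.78, -1.76 to 0.08). It was picked as a leading less open peak of alloBMT and passed the minimum mainly through counts of the other cells. Its low ratio there is thus part of the choice and supports nothing, and in PT-Cy its interval included 0.

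Of the 18 measured genes of exhaustion, 1 was called lower and 0 higher in alloBMT, where 2.81% of genes were called lower, and 4 lower and 0 higher in PT-Cy, where 3.43% were. The median log2 ratio was -0.21 and -0.38, and the summed one -0.20 (-0.26 to -0.13) and -0.32 (-0.39 to -0.24). Not all members went this way: 3 of the 18 had a log2 ratio above 0 in alloBMT and 5 in PT-Cy. The interval lay below 1 for 4 and above it for 0 in alloBMT, where 5.36% and 5.49% of all genes did. In PT-Cy it lay below 1 for 8 and above it for 2, where 4.53% and 5.8% of all genes did.

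**Figure D5:**
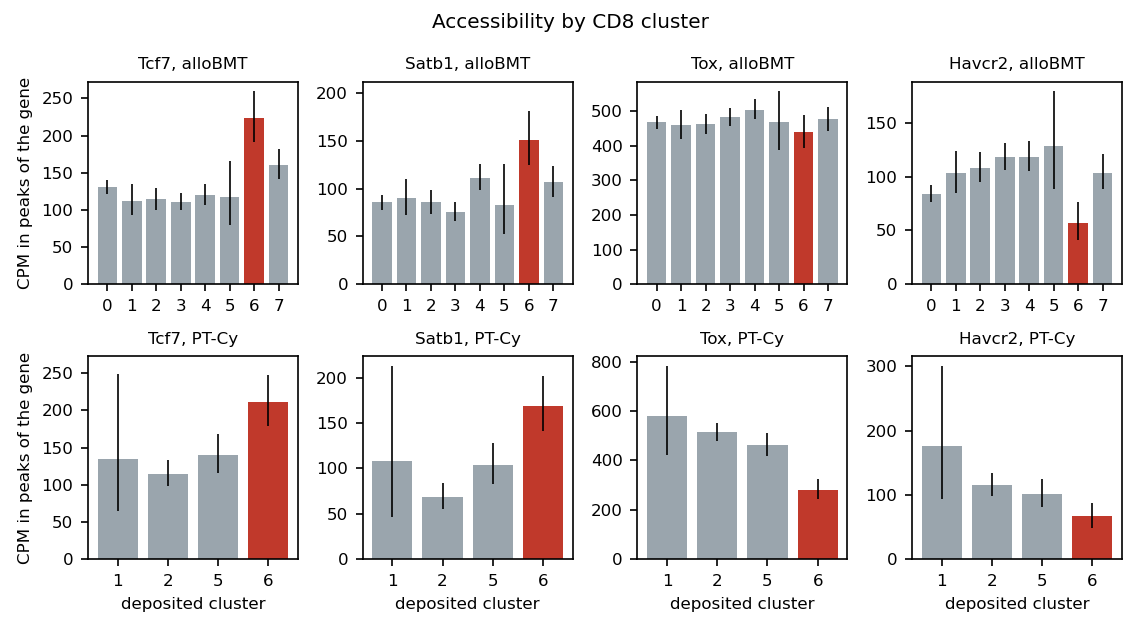
Accessibility (CPM, y axis) of Tcf7, Satb1, Tox and Havcr2 in each CD8 cluster with at least 20 cells, alloBMT and PT-Cy in separate panels, with 95% counting intervals as bars. Tcf7 is highest in cluster 6 of both libraries (223 and 211 CPM) and Havcr2 lowest (56.8 and 66.4 CPM), whereas Tox is set apart only in PT-Cy (282 CPM).

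Effector loci were mixed. Klrg1, a receptor of terminal effectors, had 33.0 CPM in cluster 6 of alloBMT against 64.6 (-0.97, -1.60 to -0.40), and 50.1 against 97.5 in PT-Cy (-0.96, upper bound -0.45). Cx3cr1, a chemokine receptor of effector cells, had 52.9 against 76.6 CPM and 51.5 against 82.8 CPM (-0.54, -1.03 to -0.08, and -0.69, -1.23 to -0.18). Gzmk (granzyme K) had 55.5 against 83.7 CPM and 59.6 against 99.2 CPM (-0.59, -1.07 to -0.15, and -0.73, -1.23 to -0.26). These 3 were lower in cluster 6 of both libraries.

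Other effector genes differed in 1 library. Gzma (granzyme A) had 13.2 against 30.9 CPM in alloBMT (-1.22, -2.29 to -0.33) but 29.8 against 28.2 CPM in PT-Cy (0.08, -0.68 to 0.80). Fasl, the death ligand, was at -1.06 (-1.72 to -0.47) and 0.04, and Prf1 (perforin) at -0.44 (-0.84 to -0.07) and 0.25 (-0.15 to 0.65). Gzmb (granzyme B) was at -0.19 in alloBMT and -0.63 (-1.26 to -0.05) in PT-Cy, and Ifng (interferon gamma) at -0.24 and -0.17. Over the list, the summed log2 ratio was -0.18 (-0.28 to -0.08) in alloBMT and -0.08 (-0.19 to 0.03) in PT-Cy. The interval lay below 1 for 8 genes and above it for 2 in alloBMT, where 5.36% and 5.49% of all genes did. In PT-Cy it did for 4 and 4, where 4.53% and 5.8% did. Il12rb2, given above, is a member above 1 in both. At 1.5-fold, 6 of 19 measured genes were lower and 2 higher in alloBMT (median -0.22), and 5 of 18 lower and 2 higher in PT-Cy (median -0.09). Of all genes, 2.81% were lower and 1.59% higher in alloBMT, and 3.43% and 2.48% in PT-Cy. Among cell division genes, 3 of 22 were lower and 0 higher in alloBMT (median -0.11), and 1 was higher and 1 lower in PT-Cy (median 0.04). Against clusters 2 and 5 of alloBMT, 6 of the 22 were lower, with a median of -0.31 and a summed log2 ratio of -0.29 (-0.41 to -0.18), against -0.08 (-0.18 to 0.03) in the main contrast. Of all genes measured against clusters 2 and 5 of alloBMT, 3.57% were lower, and their median was -0.02. Mki67, the proliferation marker, was at 52.9 against 65.9 CPM and 82.6 against 70.2 CPM.

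The lists can also be read cell by cell, as the percent of a cell's ATAC counts that fall in a list's genes. For naive and central memory genes the median was 0.185% in cluster 6 of alloBMT against 0.125% in the other cells, and 69 of 86 cells (80.2%, 70.2% to 88.0%) were above the latter. In PT-Cy it was 0.191% against 0.145%, with 88 of 121 cells (72.7%, 63.9% to 80.4%) above. Exhaustion genes had 0.250% against 0.295% and 0.243% against 0.302%, with 21 of 86 (24.4%, 15.8% to 34.9%) and 21 of 121 cells (17.4%, 11.1% to 25.3%) above the other cells' median. For effector genes, 29 of 86 cells (33.7%) lay above it in alloBMT and 57 of 121 (47.1%) in PT-Cy.

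To compare shares of cells with a count at equal depth, each cell was thinned to 2386 ATAC counts, which left out 3 and 11 cluster 6 cells and 179 and 44 others. Tcf7 then had a count in 31 of 83 cluster 6 cells of alloBMT (37.3%, 27.0% to 48.7%) against 24.7% of the other cells, and in 42 of 110 in PT-Cy (38.2%, 29.1% to 47.9%) against 27.4%. Without thinning the shares were 72.1% against 55.4% and 62.0% against 44.8%. Tox had a count in 65.1% against 65.7% of thinned cells in alloBMT and in 42.7% (33.3% to 52.5%) against 66.6% (61.3% to 71.5%) in PT-Cy, and without thinning in 83.7% against 89.1% and 59.5% against 84.7%. As a background, 12 loci of other tissues had a count in 0% to 8.43% of thinned cluster 6 cells of alloBMT and in 0% to 3.64% of those of PT-Cy.

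Over single peaks, 10 of 11281 measured peaks (0.0886%) were at least 2-fold more open in cluster 6 of alloBMT and 141 (1.25%) less open. In PT-Cy 14 of 11078 (0.126%) were more open and 187 (1.69%) less open. Peaks within 2 kb of the end of a protein-coding gene and peaks elsewhere can be set side by side. In alloBMT the interval lay below 1 for 3.14% of 7951 peaks near a gene end and for 10.1% of 3330 elsewhere, and in PT-Cy for 2.29% of 7861 and 10.1% of 3217. Above 1 the shares were 3.52% and 3.51% in alloBMT and 3.93% and 3.57% in PT-Cy. The minimum was set on the expected count, which the larger set of other cells fixes, so peaks open mainly in cluster 6 seldom reach it. By the count in cluster 6, which fixes a high ratio, a peak in Stat4 (chr1:52022042-52022627), a factor that relays IL-12 signals, had 24 counts in cluster 6 of alloBMT against 35 in all the other cells, and 14 against 7 in PT-Cy. Summed over all its peaks, Stat4 was at 0.19 (0.01 to 0.37) in alloBMT but at -0.25 (-0.49 to -0.02) in PT-Cy. In PT-Cy the less open peaks included chr3:37257138-37258511, 24.5 kb from Il21, a cytokine gene, with 4 counts against 86 (-2.74, -4.65 to -1.33), while in alloBMT it was at -0.11. A peak 14.8 kb from Slc16a11, a transporter gene, was lower in both, with 9 against 662 counts and 7 against 83 (-1.81 and -1.88). The Il21 peak was picked for its low ratio in PT-Cy and the Slc16a11 peak for that in alloBMT. Those ratios are thus part of the choice.

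By accessibility over all measured peaks, the clusters closest to cluster 6 were cluster 0 (r = 0.863) and cluster 7 (r = 0.852) in alloBMT, and cluster 2 (r = 0.807) and cluster 5 (r = 0.796) in PT-Cy. The values cover 11281 and 11022 peaks of log2(CPM + 10), and follow depth in part: the lowest, cluster 5 in alloBMT (r = 0.716) and cluster 1 in PT-Cy (r = 0.472), held only 265055 and 73959 counts. Tcf7 was more open in cluster 6 than in each of these 4, at log2 ratios of 0.77 against cluster 0 and 0.48 (0.19 to 0.76) against cluster 7 of alloBMT, and 0.88 against cluster 2 and 0.60 (0.24 to 0.96) against cluster 5 of PT-Cy. Havcr2 was at -0.56, -0.86, -0.79 and -0.60 (-1.14 to -0.08) in the same order. Irs2 (1.67), Nsg2 (1.59) and Axin2 (1.45) led against cluster 0, and Irs2 (2.23) and Nsg2 (1.88) against cluster 7, from which cluster 6 also differed in lower Fasl (-1.22) and Klrg1 (-1.07). Against cluster 2 of PT-Cy, Chst15 (1.98), Spef2 (1.71) and Satb1 (1.30) were higher and Trps1 (-1.41) lower.

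The contrasts of the 2 libraries share no cells. Cluster 6 is, however, the same label given to cells of both libraries, and the ATAC counts may have entered it. Agreement between the libraries may thus be built in and is not an independent replication. Over the 10910 genes measured in both, their log2 ratios went together with r = 0.220, across genes, which are not independent replicates. Of 604 genes whose interval lay above 1 in alloBMT, 421 (69.7%) had a ratio above 1 in PT-Cy and 107 (17.7%) an interval above 1, where 52.96% and 5.70% of all genes did. Of 576 genes below 1, 401 (69.6%) had a ratio below 1 in PT-Cy and 132 (22.9%) an interval below 1, where 47.0% and 4.50% of all genes did. Of the genes that can be named, 104 were higher in both by their intervals and 128 lower in both, whereas 10 and 13 went opposite ways. Gtf2h2, a subunit of a general transcription factor, was among those lower in both, at -1.11 and -1.65.

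Between PT-Cy and alloBMT, the intervals of cluster 6 included a ratio of 1 at Tcf7, Satb1, Foxp1, Bach2, Klf3, Id3 and Lef1, but not at Tox. Within cluster 6, Tcf7 had 211 CPM in PT-Cy and 223 in alloBMT, a log2 ratio of PT-Cy to alloBMT of -0.08 (-0.40 to 0.24), and Satb1 was at 0.17 (-0.21 to 0.55). Of 11 measured naive and central memory genes, 0 were called in either direction, with a median of 0.02 and a summed log2 ratio of 0.03 (-0.07 to 0.13). Differences within these intervals cannot be told from counting error. These ratios use the same cluster 6 counts as the contrasts with other cells. In all, 509 of 11117 genes (4.58%) were at least 1.5-fold higher in PT-Cy and 481 (4.33%) lower. The interval excluded a ratio of 1 for 418 (3.76%) and 362 (3.26%), not far above the 2.5% a side that error of independent counts leaves. Library, treatment and pool of mice cannot be told apart here.

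Tox was among the loci lower in cluster 6 of PT-Cy. Within cluster 6 its log2 ratio of PT-Cy to alloBMT was -0.64 (-0.90 to -0.38), whereas in the other CD8 cells it was 0.07 (-0.02 to 0.16). Trps1, a GATA-type repressor, was at -1.06 (-1.54 to -0.60) within cluster 6 and at 0.07 (-0.08 to 0.21) in the others. Pdcd1 was at -0.47 (-0.86 to -0.08) and -0.29 (-0.44 to -0.14), lower in both. Gldc, a glycine-degrading enzyme, was at -1.79 (-2.59 to -1.06) and -0.89 (-1.13 to -0.66). Whether cluster 6 differed from the others in these ratios was not tested.

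More open in PT-Cy within cluster 6 were Spef2 (0.83, 0.30 to 1.37), Sgk3 (1.17, 0.53 to 1.85), Dzip1 (1.52, 0.74 to 2.35), a ciliary protein, and Fasl (1.04, 0.28 to 1.83). In the other cells these were at -0.04, 0.46, 0.12 and -0.07. Mki67 was at 0.64 (0.05 to 1.26) and Id2, an E protein inhibitor of effector cells, at 0.57 (0.06 to 1.09). Over peaks, 83 of 10846 (0.765%) were at least 2-fold more open in PT-Cy and 74 (0.682%) less open.

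Last, the deposited scores of cluster 6 were compared between the libraries. The mean of Stem_Like1 was 0.0122 higher in PT-Cy than in alloBMT within cluster 6, where 63 of 121 cells of PT-Cy exceeded the median of alloBMT, and 0.0568 higher in the other cells. For Stem_Like_Acc1 the differences were -0.00691 and 0.0482. Tex1 was lower in PT-Cy in both sets, with a difference of -0.0279 in cluster 6, where 16 of 121 cells (13.2%, 7.75% to 20.6%) exceeded the median of alloBMT, and -0.0397 in the others. Tex_Acc1 differed by 0.000958 in cluster 6 and -0.0178 in the others. As cells are not replicates, none of these differences was tested.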

How the data were processed

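Nuclei of sorted CD4 and CD8 T cells from 2 groups were read as 1 multiome library each. Reads were handled with Cell Ranger ARC 1.0.1, and MACS2 was used, per the submitters' processing notes (settings were not given in the sources used here). In whole numbers and not normalized, the deposited ATAC table holds counts per peak and cell, over 148283 peaks. The sums of 2377 of 2377 CD8 cells equalled the totals in the deposited table of cells. That table, per the file headers, gives counts per cell, the fraction of fragments in peaks (printed as a percent), the TSS enrichment ratio, 4 scores used here and embedding coordinates. The authors' mitochondrial percent had medians of 5.64% and 5.32% in cluster 6. Of its 58 columns, 40 were not used. As build, those notes list GRCh38, which is human. With the gene table of mouse GRCm38.p6, 31.2% of 43693 gene ends fell in a deposited peak, and 6.16% to 6.89% did after a shift, so that table was used; positions are printed as deposited.

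Counts were summed over cluster 6 and over the other CD8 cells of each library. Genes and peaks were taken as measured at an expected count of at least 20 in the smaller set, with 2 kb around a gene of the RefSeq table. Ratios are of CPM, with exact conditional binomial (Clopper-Pearson) 95% intervals, and shares have exact Clopper-Pearson intervals. They cover counting error only. With 1 library a group no test was made. Reads sharing a molecule may be counted more than once, so an alternative counted each cell once per peak.

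Members and the 30 lists of 363 genes were chosen with earlier results of these data known. Named genes are, in each comparison, 12 a side by the interval bound nearer to a ratio of 1, up to 4 of each list with the largest ratio, and a set of known T cell genes. Named peaks are the 5 leading ones a side. Genes named beyond that rule, peaks at Tcf7, Nsg2, Id3 and Havcr2, and values against single clusters were chosen after their values were seen. Receptor segments, ribosomal, mitochondrial, sex-linked and predicted genes were left out of naming. The software was Python 3.11.15 with pandas 2.3.3, scipy 1.17.1, matplotlib 3.10.9 and numpy 2.4.6, and R 4.3.3 with edgeR 4.0.16 and DESeq2 1.42.0 only for scaling factors. The scripts were tested on simulated data. Values of 1 gene are not reported here.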

Additional observations from a re-analysis of the deposited data

Results flagged for a closer look

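Some genes had counting intervals on opposite sides of 1 in the 2 libraries, when cluster 6 was set against the other CD8 cells. The difference of the log2 ratios, PT-Cy minus alloBMT, was 1.57 for Ap4b1, 1.40 for Dzip1, 0.90 for Macrod1, -0.41 for Fyn, -2.29 for Scrn1 and -1.66 for Wipf3. Scrn1 was at 0.51 (0.11 to 0.89) in alloBMT and -1.78 (-2.59 to -1.06) in PT-Cy, and Wipf3 at 0.52 and -1.13. With 1 library a group, these differences were not tested, and the other CD8 cells of the 2 libraries came from different clusters.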

How the results depend on the processing

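No called value changed direction under any of the alternatives run. Counts of calls moved with the minimum count, the scaling and the rule. Counts for cluster 6 against other cells are given below as more open, then less open.

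Peaks of alloBMT (10 and 141) numbered 94 and 750 at an expected count of 10, 0 and 8 at 40, 23786 and 63253 with no minimum, 0 and 35 with each cell counted once, 2 and 560 with TMM factors over all peaks, 1 and 16 at 3-fold, and 397 and 586 by the interval. Against clusters 2 and 5, 32 were more open, and with 20 counts in cluster 6 or expected, 153. Peaks of PT-Cy (14 and 187) numbered 198 and 963, 0 and 9, 25835 and 48713, 3 and 68, 7 and 417, 1 and 32, and 424 and 504 under the same settings in the same order, and 175 were more open with 20 counts in cluster 6 or expected. Peaks of PT-Cy against alloBMT within cluster 6 (83 and 74) numbered 521 and 548 at 10, 1 and 2 at 40, 32622 and 27976 with no minimum, 24 and 13 with each cell counted once, 2 and 4 at 3-fold, and 340 and 256 by the interval.

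Genes of alloBMT (178 higher and 315 lower) numbered 53 and 106 at an expected count of 40, 40 and 1462 with TMM factors over all peaks, and 615 and 601 by the interval, and 319 were higher against clusters 2 and 5. Genes of PT-Cy (276 and 382) numbered 95 and 157 at 40, 82 and 1035 with TMM factors over all peaks, and 645 were higher by the interval. Within cluster 6, genes of PT-Cy against alloBMT (509 and 481) numbered 188 and 156 at 40.

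With TMM factors over all peaks the median of the naive list was 0.39 in alloBMT and 0.17 in PT-Cy, of the stem-like list 0.081 and 0.020, of the exhaustion list -0.47 and -0.57, and of the effector list -0.48 in alloBMT. With a window of 10 kb the naive list of alloBMT was at 0.77, and against clusters 2 and 5 its exhaustion list was at -0.31. The difference in the share of cells with a count at Havcr2 was -5.17 and -8.22 percentage points with thinning and -17.5 and -19.2 without. The cause of these shifts was not tested, other than that a higher minimum leaves fewer features. The interval rule, the minimum of 20 counts in cluster 6, clusters 2 and 5 as reference, the removal of shared barcodes and TMM over all peaks were chosen after seeing the data. Recomputed values that answer a comparison were close to the main one in 212 cases, above it in 29, below it in 28 and moved by more than their spread in 11, and those of single genes were close in 540 and moved in 10.

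Leaving out a replicate was not possible with 1 library a group. No paired analysis was possible because each group has 1 library and no value comes from a test. Depth limits single loci: most peaks had under 20 expected counts in cluster 6, and loci such as Il7r (22 and 31 counts) and Id3 (34 and 34) rest on few. The PT-Cy contrast also has the fewer other cells, 391 against 1779.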
